A study of Mus musculus with 9 samples.

Results

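The 39 cell division genes described here are a list of symbols taken from textbook roles in DNA replication and mitosis, and their entries were found by symbol among the 23319 gene symbols of the deposited count tables. All 39 were present. Of these, 10 act in DNA replication and 29 in mitosis. The question was whether members stand high together in single libraries, and whether they differ between the Nkx2.1, SOM and VIP libraries.

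RNA was sequenced from green fluorescent cells of mouse cortex at postnatal day 5. There were 3 libraries from each of 3 lines, called Nkx2.1, SOM and VIP here: Nkx2.1-CreER;Ai47, in which tamoxifen had been given at E17 (embryonic day 17), SOM-Cre;Ai47 and VIP-Cre;Ai47. All 3 lines carry the Cre-dependent fluorescent reporter Ai47, and no unlabelled or tamoxifen-free control is among the libraries used here. Each library was made from 150 cells picked by hand from dissected strips of medial prefrontal and anterior cingulate cortex, so a level is an average over a small pool. The Cre driver sets which cells can be green: Nkx2.1-CreER acts in cells with the Nkx2-1 promoter active around the tamoxifen dose, and SOM-Cre and VIP-Cre act in cells that use the somatostatin or the VIP promoter, then or earlier. In bulk pools of this kind, fewer cells of a type and less RNA per cell cannot be told apart. Nothing in the labels says whether the libraries of a line came from separate animals, so a p-value here measures only how far these samples spread, and that spread may be technical.

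The libraries held 6484488 to 12465997 reads in genes, and levels are given as CPM, each gene's share of all reads in genes scaled to the usual common total. A gene with no read in a library could still have had up to 3 reads, or 0.241 to 0.463 CPM depending on the library, by counting error alone. Sst and Vip followed the labels. Sst was at 29.3, 0 and 16.9 CPM in Nkx2.1, 1635, 2254 and 1472 CPM in SOM and 0.124, 0 and 0 CPM in VIP. Vip was at 2.86, 0 and 0 CPM in Nkx2.1, 0, 0 and 1.28 CPM in SOM and 414, 870 and 738 CPM in VIP, always in the order of replicates 1, 2 and 3. The Nkx2-1 gene had read counts of 12, 10 and 1 in Nkx2.1, 0, 0 and 1 in SOM and 0 in each VIP library, so Nkx2.1 replicate 3 and SOM replicate 3 were alike in it and these few reads do not check the label of Nkx2.1 replicate 3. Libraries of a line agreed loosely with each other, with correlations of log CPM across genes between 0.461 and 0.484 in Nkx2.1, 0.616 and 0.666 in SOM and 0.543 and 0.604 in VIP.

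A dividing cell copies its DNA in S phase and separates the copies in mitosis. The Mcm proteins form the helicase that opens the replication fork, Pcna clamps the polymerase to DNA, and ribonucleotide reductase and thymidylate synthase supply nucleotides. Most of the mitotic genes are switched on late in the cycle through shared promoter elements, so that in a dividing population they are transcribed together, while resting cells such as neurons keep them silent. Cortical interneurons are born before birth and do not divide afterwards, whereas glial progenitors of the cortex still divide in the first postnatal days.

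The shared promoter elements can be read in the reference sequence. RefSeq promoter windows of GRCm38.p6, which run from 250 bases before to 50 bases after a gene's start, were matched by symbol for 33 of the 39 members. Windows are shown for 2 members that had many reads in 1 Nkx2.1 library, Plk1 and Cdk1, and for 2 that had at most 1 read in any library, Ccnb1 and Cdc20, since these genes are textbook partners in mitosis. Capitals mark the letters TTTGAA (the cell cycle homology region), CCAAT (the box bound by NF-Y) and the E2F-type letters, in the forms TTCCCGC (the first), TTGGCGC (the second form) and TTCGCGC (the third), each searched on both strands, so that the reverse complement, such as ATTGG for CCAAT, is also in capitals. In Ccnb1 the first run of capitals holds an E2F-type match and a CCAAT match that overlap. Each sequence runs 5′ to 3′ on the strand of the gene, from chr7:122159185-122159484 (plus strand) for Plk1, chr10:69352863-69353162 (minus strand) for Cdk1, chr13:100786437-100786736 (minus strand) for Ccnb1 and chr4:118437294-118437593 (minus strand) for Cdc20.
Plk1: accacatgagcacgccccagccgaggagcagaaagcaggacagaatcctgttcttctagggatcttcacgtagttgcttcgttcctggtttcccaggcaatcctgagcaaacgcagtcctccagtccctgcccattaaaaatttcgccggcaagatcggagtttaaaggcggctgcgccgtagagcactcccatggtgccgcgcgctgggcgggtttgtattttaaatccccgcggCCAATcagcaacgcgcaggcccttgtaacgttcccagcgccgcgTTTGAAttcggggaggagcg
Cdk1: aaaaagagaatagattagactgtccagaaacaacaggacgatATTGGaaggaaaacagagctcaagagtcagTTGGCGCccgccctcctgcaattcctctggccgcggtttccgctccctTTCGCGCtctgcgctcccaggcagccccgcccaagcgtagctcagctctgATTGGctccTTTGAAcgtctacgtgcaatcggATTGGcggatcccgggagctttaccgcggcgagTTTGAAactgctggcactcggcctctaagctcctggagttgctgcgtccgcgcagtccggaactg
Ccnb1: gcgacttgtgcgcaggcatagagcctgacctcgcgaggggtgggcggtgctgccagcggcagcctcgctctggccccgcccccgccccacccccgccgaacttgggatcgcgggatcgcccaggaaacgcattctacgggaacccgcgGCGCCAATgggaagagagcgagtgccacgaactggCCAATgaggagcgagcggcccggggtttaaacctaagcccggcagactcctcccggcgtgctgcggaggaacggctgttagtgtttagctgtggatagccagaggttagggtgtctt
Cdc20: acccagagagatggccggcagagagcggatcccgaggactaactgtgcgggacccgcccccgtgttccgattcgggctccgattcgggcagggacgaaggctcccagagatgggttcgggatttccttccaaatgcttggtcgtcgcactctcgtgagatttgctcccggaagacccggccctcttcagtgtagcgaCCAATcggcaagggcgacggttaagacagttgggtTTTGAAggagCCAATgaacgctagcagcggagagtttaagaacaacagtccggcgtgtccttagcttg

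TTTGAA was found in the windows of 18 of the 33 matched members, 17 of 24 mitotic genes and 1 of 9 replication genes, while 17.9% of all 32851 promoter windows held it. CCAAT was found in 25 of the 33, with 17 of 24 mitotic and 8 of 9 replication genes, beside 37.4% of all windows. The E2F-type letters were found in 4 of the 24 mitotic genes and 5 of the 9 replication genes, beside 8.07% of all windows. These matches are a description of letters in a window and not of binding. Both a member with a total of 1 read over the 9 libraries (Cdc20) and members with many reads in 1 library (Plk1, Cdk1) carry TTTGAA and CCAAT.

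The members were sparsely detected. No read was seen in any library for 3 of them: Mcm3, a subunit of the replicative helicase, Melk, a mitosis-linked kinase, and Anln, the cytokinesis protein anillin. A further 5 had fewer than 10 reads in every library, namely Ccnb1 (cyclin B1), Bub1 (a checkpoint kinase), Cdc20 (the activator of the anaphase-promoting complex), Nuf2 (an outer kinetochore protein) and Kif2c (a microtubule-depolymerizing kinesin). Each of these 5 was present as 1 read in 1 to 3 libraries. At least 10 reads were reached in exactly 1 library by 8 members, in 2 to 4 libraries by 12, in 5 to 8 libraries by 9, and in all 9 by Pcna and Ccna2. Among the 13120 genes with at least 10 reads in some library, 30.9% reached that level in all 9 and 11.3% in exactly 1.

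The zero of Anln cannot be read as a level. It lies on the minus strand of chromosome 9 inside a run of 461 consecutive protein-coding genes of that strand, of 522 on the chromosome, that have no read in any library. On the other strand of the same stretch, 356 of 516 genes have reads. The gene before the run is Cdkn2d, an inhibitor of cyclin-dependent kinases, which stands at 29009 to 32903 CPM in the 9 libraries. The same run holds Ccnb2, Spc24 and Kif23 of the other mitotic genes considered below, so Anln, these 3 genes and Cdkn2d carry no information here.

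**Figure D1:**
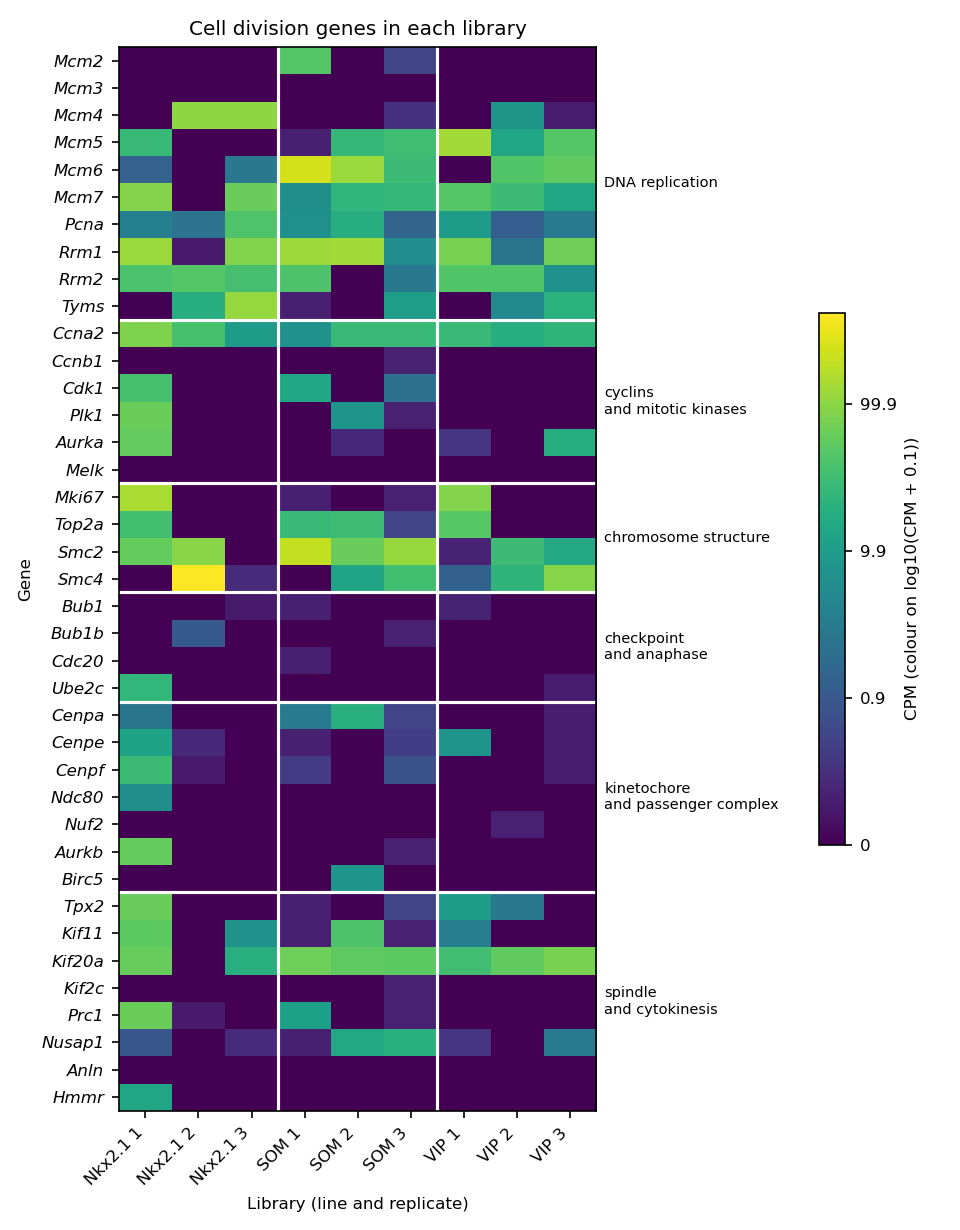
Level of each of the 39 cell division genes (vertical axis, grouped by role) in each of the 9 libraries (horizontal axis, line and replicate), as CPM on a log10 colour scale of CPM + 0.1. The column of Nkx2.1 replicate 1 is bright in many mitotic genes that are dark in most other columns, while the replication genes at the top are scattered over all columns.

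The mitotic members stood high together in 1 library, Nkx2.1 replicate 1. A member was counted as up in a library where it had at least 10 reads and a CPM at least 5 times the median of the other 8 libraries, with a median of 0 counted as passed. By this count 15 of the 22 mitotic members with at least 10 reads somewhere were up in Nkx2.1 replicate 1, while 11.5% of the 13120 genes were up there. None of the 9 replication members with at least 10 reads somewhere was up in that library. The 15 were Cdk1, Plk1, Aurka, Mki67, Top2a, Ube2c, Cenpa, Cenpe, Cenpf, Ndc80, Aurkb, Tpx2, Kif11, Prc1 and Hmmr.

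In the other 8 libraries 1 to 6 mitotic members were up. Nkx2.1 replicates 2 and 3 had 2 and 1, beside 8.68% and 10.9% of all genes. SOM replicates 1, 2 and 3 had 4, 6 and 2, beside 14.4%, 15.3% and 16.4% of all genes. VIP replicates 1, 2 and 3 had 5, 1 and 3, beside 11.4%, 15.6% and 15.0% of all genes. The counts in SOM replicate 2 and VIP replicate 1 were the next highest, and both lie far under the 15 of Nkx2.1 replicate 1.

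Sparse genes pass this rule more easily, because their median over the other libraries is often 0. The comparison was therefore also made among genes with at least 10 reads in 1 to 4 libraries, a class chosen after the values were seen, which holds 18 mitotic members and 3979 genes in all. Ube2c, Cenpf, Ndc80, Aurkb and Hmmr are in this class through Nkx2.1 replicate 1 alone, so the values describe the libraries and add no separate support. In Nkx2.1 replicate 1, 15 of these 18 members reached 10 reads, beside 19.3% of the 3979 genes. In Nkx2.1 replicates 2 and 3, 1 and 1 of the 18 did, beside 11.4% and 17.4%. The SOM libraries had 4, 6 and 2 of the 18, beside 30.9%, 32.6% and 36.7%, and the VIP libraries had 5, 1 and 2, beside 17.4%, 29.7% and 28.2%. The members' share lay far above that of all such genes in Nkx2.1 replicate 1, above it in VIP replicate 1, close to it in SOM replicate 2 and below it in the other 6 libraries.

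**Figure D2:**
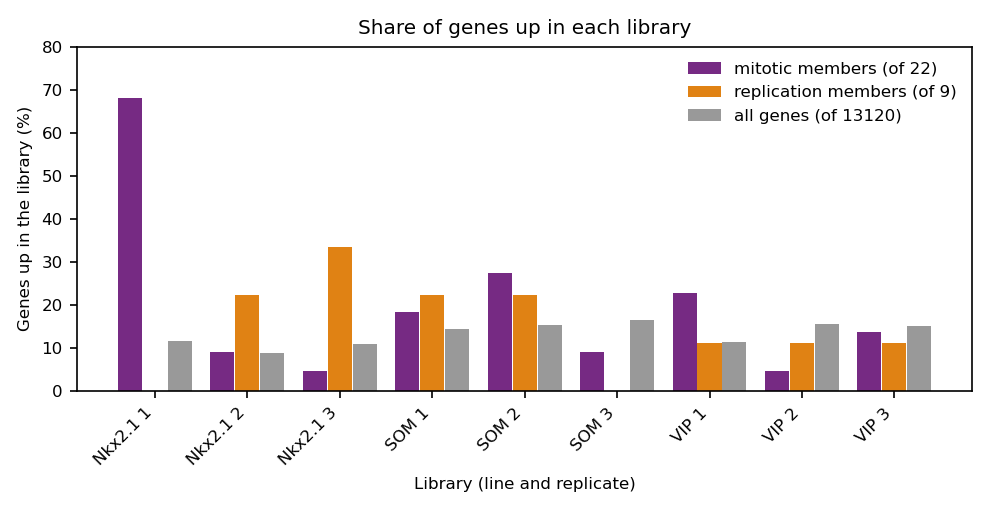
Share of genes up in each library (vertical axis, %), for the 22 mitotic members, the 9 replication members and all 13120 genes with at least 10 reads somewhere; the horizontal axis gives line and replicate. The mitotic bar of Nkx2.1 replicate 1 (15 of 22 genes) is the tallest, and the replication bar is at 0 in that library.

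Low levels elsewhere are part of how the 15 genes were picked, so their counts in the other libraries are a description. Of the 15, 12 had no read in Nkx2.1 replicate 2 and 14 had none in Nkx2.1 replicate 3, where Kif11 was the exception. In the SOM libraries 6, 10 and 4 of the 15 had no read, and in the VIP libraries 9, 14 and 10. At least 10 reads were reached by 0 and 1 of them in Nkx2.1 replicates 2 and 3, by 4, 4 and 1 in SOM and by 5, 1 and 1 in VIP. The promoter windows of 13 of the 15 were matched, and TTTGAA was in 12 of these and CCAAT in 12. Of the 7 mitotic members with fewer than 10 reads in every library, 3 held TTTGAA and 3 held CCAAT, and Anln, whose level cannot be read, is 1 of those with TTTGAA. Over all 24 matched mitotic members, 17 held TTTGAA and 17 held CCAAT, beside 17.9% and 37.4% of all windows. Among matched mitotic members outside these sets, Smc2 and Bub1b held both and Birc5 and Nusap1 neither. Whether these letters go with the reads was not tested.

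The pattern did not cover the whole mitotic list. Leaving Anln aside, 9 mitotic members had no read in Nkx2.1 replicate 1: Ccnb1, Bub1, Bub1b, Cdc20, Birc5, Nuf2, Kif2c, Melk and Smc4. The library thus held the kinase Cdk1 but no read of Ccnb1, a cyclin partner. Another cyclin, Ccna2, had its highest level there, at 84.5 CPM, with the limit given below, and Ccnb2 cannot be read. The library also held the kinase Aurkb but no read of Birc5 (survivin), its partner in the chromosomal passenger complex. Ndc80 was read and Nuf2, with which it forms a dimer at the kinetochore, was not. Outside it, Ccnb1, Nuf2 and Birc5 each had reads in 1 library.

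Summed over the 29 mitotic members, the Nkx2.1 libraries had 865, 553 and 35.7 CPM, the SOM libraries 327, 279 and 255 CPM and the VIP libraries 220, 128 and 230 CPM. Nkx2.1 held both the highest and the lowest sum, so the lines overlap, and the means were 485 ± 419 in Nkx2.1, 287 ± 36.9 in SOM and 193 ± 56.3 CPM in VIP (SD, n = 3 each). The 553 CPM of Nkx2.1 replicate 2 come mostly from Smc4 and Smc2, described below. The 10 replication members summed to 280, 169 and 443 CPM in Nkx2.1, 466, 316 and 110 CPM in SOM and 310, 149 and 215 CPM in VIP. Their ranges overlap fully, and Nkx2.1 replicate 1 is neither high nor low among them.

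**Figure D3:**
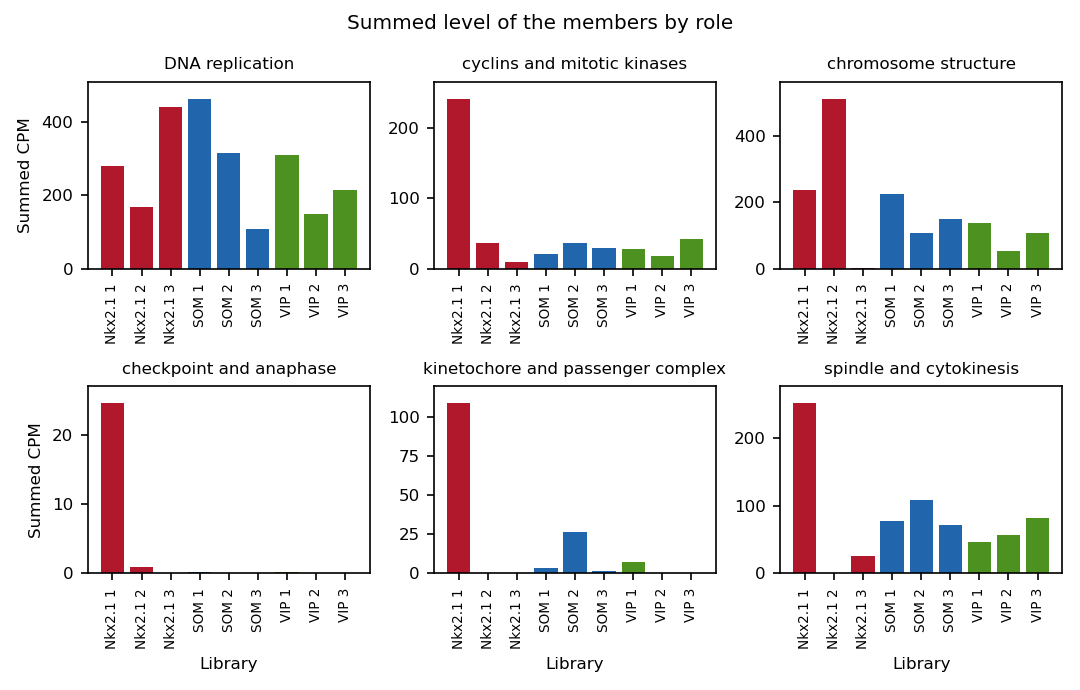
Summed CPM (vertical axis) of the members of each of the 6 roles in each library (horizontal axis), coloured by line. Nkx2.1 replicate 1 is the tallest bar for cyclins and mitotic kinases (243 CPM), checkpoint and anaphase (24.5 CPM), kinetochore and passenger complex (109 CPM) and spindle and cytokinesis (251 CPM), but not for DNA replication or chromosome structure.

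Among the cyclins and mitotic kinases, Nkx2.1 replicate 1 held 243 CPM and the other 8 libraries 9.61 to 41.8 CPM. Cdk1, the kinase that drives entry into mitosis (chromosome 10, minus strand), was at 37.4, 0 and 0 CPM in Nkx2.1, 14.4, 0 and 1.98 CPM in SOM and 0 in every VIP library. Plk1, which acts in spindle assembly and exit from mitosis (chromosome 7, plus strand), was at 64.1, 0 and 0 CPM in Nkx2.1, 0, 8.02 and 0.117 CPM in SOM and 0 in VIP. Aurka, the kinase of the spindle poles, was at 56.8, 0 and 0 CPM in Nkx2.1, 0, 0.154 and 0 CPM in SOM and 0.248, 0 and 18.2 CPM in VIP. All of these kinases had their highest level in Nkx2.1 replicate 1, and each reached 10 reads in at least 1 other library. Per kilobase of the longest coding transcript, Aurka, Plk1 and Ccna2 were at 29.8, 29.1 and 28.5 CPM per kb in Nkx2.1 replicate 1. Cdk1 was at 8.55 CPM per kb there, and Ccnb1 and Melk had no read.

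Ccna2 (cyclin A2, which acts in S phase and early mitosis) was read in every library, at 84.5, 37.0 and 9.61 CPM in Nkx2.1, 6.75, 28.5 and 27.6 CPM in SOM and 27.6, 17.8 and 23.6 CPM in VIP. Its highest level, too, was in Nkx2.1 replicate 1, and its lowest was in SOM replicate 1. Ccna2 shares 510 exon bases with Exosc9, an exosome subunit gene on the opposite strand, which was at 258, 82.6 and 40.9 CPM in Nkx2.1 and whose reads may be counted with it or withheld as ambiguous, since the strand setting of the counting is not given in the sources used here. Its level is therefore uncertain in all libraries.

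Of the chromosome structure genes, Mki67, which codes for the proliferation marker Ki-67, was at 146, 0 and 0 CPM in Nkx2.1, 0.109, 0 and 0.117 CPM in SOM and 89.2, 0 and 0 CPM in VIP. The levels of Nkx2.1 replicate 1 and VIP replicate 1 rest on 1584 and 720 reads, and no other library had more than 1. Top2a, the topoisomerase that untangles sister chromatids, was at 33.5, 0 and 0 CPM in Nkx2.1, 27.8, 31.5 and 0.466 CPM in SOM and 48.2, 0 and 0 CPM in VIP. Mki67 and Top2a thus were high together in Nkx2.1 replicate 1 and VIP replicate 1, while Top2a without Mki67 was seen in SOM replicates 1 and 2.

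The condensin subunits behaved otherwise. Smc2 was at 58.6, 96.0 and 0 CPM in Nkx2.1, 197, 63.1 and 117 CPM in SOM and 0.124, 30.3 and 15.2 CPM in VIP. Smc4, its dimer partner, was at 0, 419 and 0.169 CPM in Nkx2.1, 0, 12.8 and 33.4 CPM in SOM and 1.24, 22.9 and 90.8 CPM in VIP. In Nkx2.1 replicate 2, Smc4 had the highest level of any member in any library, 97.0 CPM per kb of transcript, without any of the 15 genes named above reaching 10 reads. In Nkx2.1 replicate 1, where Smc4 had no read, the other condensin subunits were mixed. Ncapd3 was at 259, Ncapg at 242, Ncapd2 at 206 and Ncaph at 90.04 CPM, the highest level of each, whereas Ncapg2 was at 1.20 CPM beside up to 45.3 CPM in SOM replicate 2, and Ncaph2 was at 81.8 CPM beside up to 214 CPM in VIP replicate 3.

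The checkpoint and anaphase genes were close to absent outside 1 gene in 1 library. Ube2c, the ubiquitin-conjugating enzyme of the anaphase-promoting complex, was at 24.5 CPM in Nkx2.1 replicate 1, with no read in Nkx2.1 replicates 2 and 3 or in any SOM library, and with 0.0874 CPM in VIP replicate 3 and none in the other VIP libraries. Bub1b, a spindle checkpoint protein, was at 0.963 CPM in Nkx2.1 replicate 2 and 0.117 CPM in SOM replicate 3, with no read elsewhere.

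At the kinetochore and in the passenger complex, 5 of 7 members were up in Nkx2.1 replicate 1. Aurkb, the kinase that corrects faulty spindle attachments, was at 57.6, 0 and 0 CPM in Nkx2.1, 0, 0 and 0.117 CPM in SOM and 0 in VIP. Cenpf, a late-cycle kinetochore protein, was at 29.95, 0.0802 and 0 CPM in Nkx2.1, 0.327, 0 and 0.699 CPM in SOM and 0, 0 and 0.0874 CPM in VIP. Ndc80, the microtubule-binding subunit of the outer kinetochore, was at 6.08 CPM in Nkx2.1 replicate 1 and had no read in the other 8 libraries. These 3 genes had at most 6 reads in any other library.

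Cenpe, a kinetochore motor, was at 12.6, 0.160 and 0 CPM in Nkx2.1, 0.109, 0 and 0.350 CPM in SOM and 7.43, 0 and 0.0874 CPM in VIP. Its higher libraries were the same as those of Mki67. Cenpa, the histone variant that marks centromeres, was at 2.49, 0 and 0 CPM in Nkx2.1, 3.16, 18.7 and 0.466 CPM in SOM and 0, 0 and 0.0874 CPM in VIP. Birc5 was at 7.86 CPM in SOM replicate 2 and had no read elsewhere. Cenpa and Birc5 were therefore highest in SOM replicate 2 and not in Nkx2.1 replicate 1.

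Of the spindle and cytokinesis genes, Tpx2, which activates Aurka on the spindle, was at 61.3, 0 and 0 CPM in Nkx2.1, 0.109, 0 and 0.466 CPM in SOM and 10.0, 2.70 and 0 CPM in VIP. Kif11, the motor that pushes spindle poles apart, was at 51.3, 0 and 7.25 CPM in Nkx2.1, 0.109, 40.9 and 0.117 CPM in SOM and 3.47, 0 and 0 CPM in VIP. Prc1, which bundles microtubules of the midzone, was at 64.1, 0.0802 and 0 CPM in Nkx2.1, 11.1, 0 and 0.117 CPM in SOM and 0 in VIP. These genes had their highest level in Nkx2.1 replicate 1 and differed in the library that came next, which was VIP 1 for Tpx2, SOM 2 for Kif11 and SOM 1 for Prc1.

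Hmmr, a spindle-associated protein, was at 13.5 CPM in Nkx2.1 replicate 1 and had no read in the other libraries. Nusap1, which binds spindle microtubules near chromosomes, was at 0.829, 0 and 0.169 CPM in Nkx2.1, 0.109, 15.1 and 20.04 CPM in SOM and 0.248, 0 and 3.15 CPM in VIP. Nusap1 thus was low in Nkx2.1 replicate 1. Kif20a, a motor of the late spindle and cleavage furrow, was at 60.1, 0 and 18.5 CPM in Nkx2.1, 65.3, 52.4 and 50.7 CPM in SOM and 32.2, 54.2 and 78.7 CPM in VIP. Kif20a shares 1271 exon bases with Cdc23 on the opposite strand, an anaphase-promoting complex subunit at 313, 0.0802 and 98.2 CPM in Nkx2.1. Both had little or no read in Nkx2.1 replicate 2, and reads of the pair may not be separable. Smaller shared stretches with genes of the opposite strand were found for Prc1 with Rccd1 (911 bases), Ube2c with Tnnc2 (592 bases), Mcm7 with Ap4m1 (321 bases) and Cops6 (64 bases), Nusap1 with Oip5 (172 bases) and Cdc20 with Elovl1 (53 bases).

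The replication members were scattered, with at most 3 of 9 up in any library. At least 10 reads were reached by 6, 4 and 7 of the 10 in Nkx2.1, by 6, 5 and 7 in SOM and by 5, 8 and 7 in VIP. Those up numbered 0, 2 and 3 of 9 in Nkx2.1, beside 11.5%, 8.68% and 10.9% of all genes. They numbered 2, 2 and 0 in SOM, beside 14.4%, 15.3% and 16.4%, and 1, 1 and 1 in VIP, beside 11.4%, 15.6% and 15.0%. The helicase subunits, whose products work as a ring of equal parts, were not read in step.

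Mcm4 was at 0, 103 and 103 CPM in Nkx2.1, 0, 0 and 0.233 CPM in SOM and 0, 8.09 and 0.0874 CPM in VIP. Mcm6 was at 1.29, 0 and 2.70 CPM in Nkx2.1, 246, 118 and 30.2 CPM in SOM and 0, 44.1 and 55.2 CPM in VIP. Mcm4 was high where Mcm6 was low in Nkx2.1 replicates 2 and 3, and the reverse held in all SOM libraries. Mcm2 was at 44.4 CPM in SOM replicate 1 and 0.466 CPM in SOM replicate 3, with no read elsewhere. Mcm5 was at 27.6, 0 and 0 CPM in Nkx2.1, 0.109, 25.9 and 32.6 CPM in SOM and 133, 13.9 and 46.6 CPM in VIP. Mcm7 was at 88.6, 0 and 62.8 CPM in Nkx2.1, 6.21, 23.9 and 25.5 CPM in SOM and 46.0, 30.8 and 14.6 CPM in VIP. Neither Mcm5 nor Mcm7 separated the lines.

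The nucleotide enzymes and the sliding clamp were read more widely. Rrm1, the large subunit of ribonucleotide reductase, was at 119, 0.0802 and 86.7 CPM in Nkx2.1, 122, 130 and 5.94 CPM in SOM and 78.3, 2.36 and 68.0 CPM in VIP. Rrm2, the small subunit that is made in S phase, was at 39.9, 46.0 and 35.4 CPM in Nkx2.1, 40.3, 0 and 2.80 CPM in SOM and 42.9, 43.3 and 7.17 CPM in VIP. Each line had a library with at most 46.0 and at least 35.4 CPM of Rrm2, and the lines overlapped. Tyms, thymidylate synthase, was at 0, 17.8 and 111 CPM in Nkx2.1, 0.109, 0 and 10.4 CPM in SOM and 0, 5.06 and 20.5 CPM in VIP. Pcna was at 3.59, 2.33 and 42.4 CPM in Nkx2.1, 6.42, 18.2 and 1.40 CPM in SOM and 9.54, 1.12 and 2.88 CPM in VIP. The highest Tyms and Pcna were both in Nkx2.1 replicate 3, which had 1 mitotic member up.

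No member was called different between the lines in the test across all genes. Of the 39 members, 18 had enough reads in at least 3 libraries to be tested with edgeR's quasi-likelihood test among 10728 genes. None of the 18 passed a Benjamini-Hochberg adjusted p of 0.05 in any comparison. In Nkx2.1 over SOM, 0.0652% of all genes were called higher and 0.028% lower. The same shares were 0.177% and 0.13% in Nkx2.1 over VIP, and 0.0559% and 0.0186% in SOM over VIP. With so few genes called at all, the absence of members among them is near the background. In simulated data with the spread of these libraries, the same fit made no call. The absence therefore does not show that the members were alike between the lines. The members left untested include Mki67, Plk1, Aurka, Aurkb and 17 others, which reached the level needed in too few libraries.

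At an unadjusted p of 0.05, edgeR gave 1 member higher and 1 lower in Nkx2.1 over SOM, beside 2.92% and 8.38% of all genes. Mcm4 was higher, at a log2 fold change of 9.59 ± 3.67 (SE, adjusted p = 0.374 by edgeR), in 2 of 3 Nkx2.1 libraries. Only 2 Mcm4 reads were seen in the SOM libraries against 2501 in Nkx2.1, a ratio of pooled CPM of 862 with a 95% exact counting interval of 238 to 7121, which covers counting error alone. Mcm6 was lower, at -6.486 ± 2.495 (SE, adjusted p = 0.377 by edgeR), in 3 of 3 Nkx2.1 libraries. It was the only member whose Nkx2.1 and SOM libraries did not overlap, where 15.5% of all tested genes were lower and 4.9% higher in all 3 Nkx2.1 libraries.

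In Nkx2.1 over VIP, 1 member was higher and 0 lower at an unadjusted p of 0.05, beside 5.73% and 9.43% of all genes. This was Cdk1 (adjusted p = 0.323 by edgeR), with 406 reads in Nkx2.1 replicate 1 and none in the VIP libraries. Its pooled CPM was at least 109-fold higher in the Nkx2.1 libraries, with the VIP group set to 3 reads, but in 1 of 3 Nkx2.1 libraries. No member separated the Nkx2.1 from the VIP libraries, where 6.16% of all genes were higher and 14.6% lower without overlap.

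In SOM over VIP, 1 member was higher and 0 lower at an unadjusted p of 0.05, beside 4.63% and 2.36% of all genes. Cenpa was higher at 7.396 ± 2.973 (SE, adjusted p = 0.618 by edgeR), with 154 reads in the SOM libraries and 1 read in the VIP libraries, a ratio of pooled CPM of 180 with a counting interval of 31.9 to 7171. Cenpa and Smc2 were the 2 members higher in all 3 SOM libraries than in every VIP library, beside 10.2% of all genes higher and 9.35% lower without overlap.

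Over the 18 tested members the median log2 fold change was 0.89 in Nkx2.1 over SOM, 1.55 in Nkx2.1 over VIP and 0.17 in SOM over VIP, where the medians of all tested genes were -0.007, 0.003 and -0.004. Fitted values were above 0 for 10, 13 and 10 of the 18. Single libraries moved these medians. Without Nkx2.1 replicate 1 they were -1.57 in Nkx2.1 over SOM and 0.048 in Nkx2.1 over VIP, and the highest values with 1 library left out were 1.73 (without SOM replicate 2) and 1.88 (without SOM replicate 3). The median of SOM over VIP was -0.44 without SOM replicate 2, -0.054 without SOM replicate 1, 0.49 without VIP replicate 3 and 1.35 without VIP replicate 1. Between 18 and 23 members were tested in these fits. The standard errors of single members ran from 1.36 to 4.37 on the log2 scale. Mcm4, at a log2 fold change of 9.59 in Nkx2.1 over SOM, did not pass the adjusted threshold. Even very large changes thus could not always be told from the spread between libraries.

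DESeq2's Wald test, run as an alternative, gave an adjusted p for 16 of the 39 members in each comparison and called 3 members. Mki67, Top2a, Plk1, Aurka and Aurkb were among those with no p-value from it. It gave adjusted p = 0.0125 for Mcm4 (log2 fold change 9.92 ± 2.94, SE) and adjusted p = 0.0174 for Mcm6 (-6.45 ± 1.98) in Nkx2.1 over SOM, and called Cdk1 higher in Nkx2.1 over VIP (adjusted p = 1.42e-07) and in SOM over VIP (adjusted p = 2.59e-06). The same tool called 1.81% of all genes higher and 6.84% lower in Nkx2.1 over SOM, 4.39% and 8.66% in Nkx2.1 over VIP and 3.04% and 1.58% in SOM over VIP. The Cdk1 calls rest on a group with no read.

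**Figure D4:**
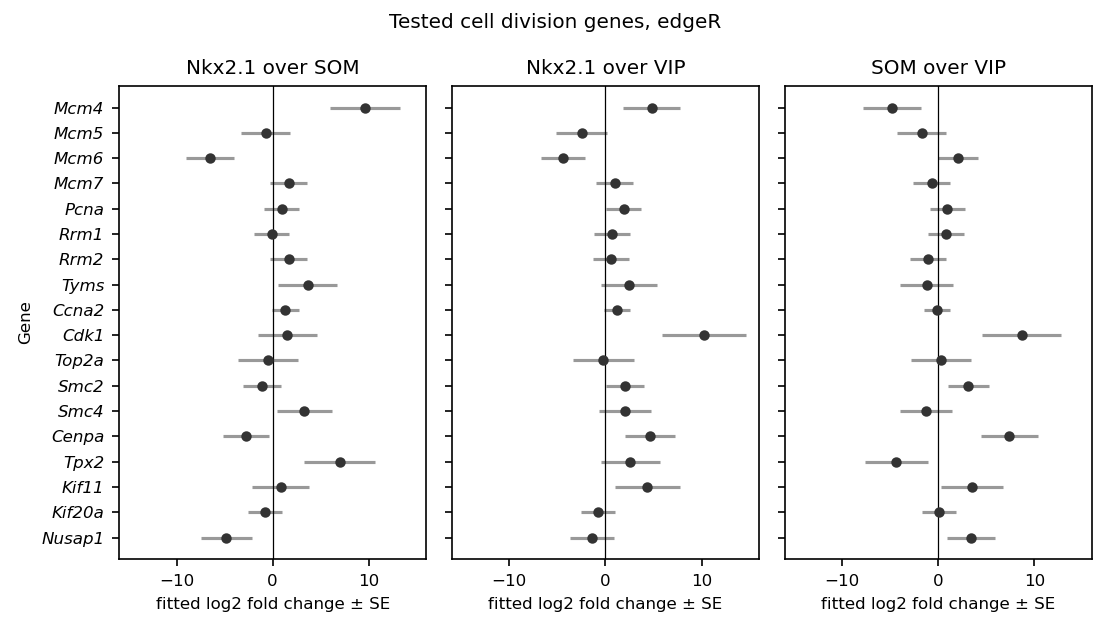
Fitted log2 fold change of the 18 tested members (rows) in the 3 comparisons (panels), with bars of 1 SE from edgeR. Most bars cross 0, and Mcm4, Tpx2 and Mcm6 stand farthest from it in Nkx2.1 over SOM.

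Other genes of the cell cycle were looked up from a list of 109, of which 108 were in the tables, 92 had at least 10 reads somewhere and 62 were tested. None of the 62 passed the adjusted threshold in any comparison by edgeR. At an unadjusted p of 0.05, edgeR gave 2 higher and 6 lower in Nkx2.1 over SOM, 4 and 6 in Nkx2.1 over VIP and 4 and 1 in SOM over VIP, while DESeq2 called 2 and 7, 2 and 5, and 2 and 1 in the same order. Cdkn2d, which carries no information, is 1 of the higher genes in both Nkx2.1 comparisons by edgeR. Over all genes the shares at an unadjusted p of 0.05 were 2.92% and 8.38%, 5.73% and 9.43%, and 4.63% and 2.36%, and those called by DESeq2 were 1.81% and 6.84%, 4.39% and 8.66%, and 3.04% and 1.58%. These counts of 62 to 66 genes lie near those shares. The lowest adjusted p was 0.238 in Nkx2.1 over SOM, 0.186 in Nkx2.1 over VIP and 0.228 in SOM over VIP. Cdkn1a, which codes for the cell cycle inhibitor p21, was at 0.829, 0.0802 and 0 CPM in Nkx2.1, 57.7, 73.6 and 55.9 CPM in SOM and 12.5, 6.07 and 4.46 CPM in VIP. The lines did not overlap in Cdkn1a, though its adjusted p in Nkx2.1 over SOM was 0.317 by edgeR. DESeq2 called it lower. Without overlap, 4 of the 62 were higher and 8 lower in Nkx2.1 over SOM, beside 4.9% and 15.5% of all genes. In Nkx2.1 over VIP 3 and 9 were, beside 6.16% and 14.6%. In SOM over VIP 7 and 5 were, beside 10.2% and 9.35%. These counts, which include Cdkn1a in each comparison, lie near those shares.

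By library, 22, 6 and 10 of the 92 were up in the Nkx2.1 libraries, 11, 16 and 20 in SOM and 10, 20 and 19 in VIP. All genes up made 11.5%, 8.68% and 10.9% in Nkx2.1, 14.4%, 15.3% and 16.4% in SOM and 11.4%, 15.6% and 15.0% in VIP. Nkx2.1 replicate 1 had the highest count, and SOM replicate 3 and VIP replicate 2 came next with 20 each. The 8 of its 22 with the highest CPM were Ncapd3, Ncapd2 and Ncaph of condensin (259, 206 and 90.04 CPM), Prim1 (primase, 203 CPM), Stmn1 (a tubulin-binding protein also used by growing neurons, 154 CPM), Cdca2 (117 CPM), Cdkn2c (a kinase inhibitor, 109 CPM) and E2f1 (an activator of S-phase genes, 81.8 CPM). Cdkn2c was read in no other library, and Cdca2 was at 0.233 CPM in SOM replicate 3 and 0 elsewhere. Among the other mitotic genes alone, with 28 read at this depth, 9, 3 and 3 were up in the Nkx2.1 libraries, 4, 6 and 9 in SOM and 4, 6 and 7 in VIP. SOM replicate 3 had the same count as Nkx2.1 replicate 1 in this second list, where the shares over all genes were 16.4% in SOM replicate 3 and 11.5% in Nkx2.1 replicate 1.

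Other cell cycle genes had the highest CPM among those up in the remaining libraries with at least 3 members up. Lig1, the ligase of lagging-strand DNA, was at 202 CPM in Nkx2.1 replicate 2 and 82.2 CPM in SOM replicate 1. Incenp, the scaffold of the passenger complex, was at 119 CPM in Nkx2.1 replicate 2, where Aurkb and Birc5 had no read. In Nkx2.1 replicate 3 the leading genes were Prim1 at 108 CPM and Rbl1, which codes for the pocket protein p107, at 92.9 CPM. In SOM replicate 2 they were Cdkn1a at 73.6 CPM and Ncapg2 at 45.3 CPM. In VIP replicates 1 and 3 Ccnd2 led. Ccnd2 (cyclin D2, which acts in G1) was at 79.6, 0 and 1.94 CPM in Nkx2.1, 10.9, 38.1 and 25.99 CPM in SOM and 478, 208 and 196 CPM in VIP. Ccnd2 was therefore higher in each VIP library than in any library of the other lines, with no mitotic member sharing that order. Ccnd2 is among the genes without overlap counted above, whose number lay near the share over all genes.

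The library with the 15 mitotic genes also held the most RNA of astrocyte and radial glia markers. Their summed level over 13 genes was 2904, 646 and 269 CPM in Nkx2.1, 125, 271 and 104 CPM in SOM and 554, 709 and 351 CPM in VIP, and 9 of the 13 were up in Nkx2.1 replicate 1. Slc1a3 (a glutamate transporter, 1339 CPM), Fabp7 (a lipid-binding protein of radial glia and astrocytes, 1006 CPM), Aldoc (152 CPM), Aqp4 (the astrocyte water channel, 147 CPM) and Aldh1l1 (128 CPM) were highest there. Of the 12 with at least 10 reads somewhere, 6 had their highest level in Nkx2.1 replicate 1. Nes and Gja1, counted among the 9 up, stood at 1.47 and 0.922 CPM there, on 16 and 10 reads. Slc1a2 was at 95.1 CPM there and at 376, 233 and 244 CPM in VIP. Vim was at 0.829 CPM there and at 142, 248 and 71.4 CPM in VIP. Gfap was at 23.9 CPM there and 40.8 CPM in Nkx2.1 replicate 2. Hopx was at 0.553 CPM there and 37.5 CPM in SOM replicate 3. Sox2 was at 0 in all 9 libraries. The part of these markers in the mitotic result was not tested.

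No other list of markers had its highest sum in Nkx2.1 replicate 1. The oligodendrocyte lineage summed to 238, 245 and 307 CPM in Nkx2.1, 103, 275 and 193 CPM in SOM and 1.73, 121 and 56.1 CPM in VIP. VIP replicate 1, which held Mki67 and Top2a, had the lowest value of these. The list of intermediate progenitors and neuroblasts, mostly Dcx and Sox11, summed to 3596, 4204 and 3869 CPM in Nkx2.1, 2314, 1788 and 2500 CPM in SOM and 1415, 1690 and 1253 CPM in VIP, with Eomes at 0 in all. GABAergic markers summed to 3263, 5379 and 3227 CPM in Nkx2.1, 3836, 3564 and 3422 CPM in SOM and 7077, 5606 and 5682 CPM in VIP, so RNA of GABAergic neurons was present in every library. Excitatory neuron markers summed to 94.5, 0 and 81.7 CPM in Nkx2.1, 10.0, 3.86 and 1.51 CPM in SOM and 157, 80.9 and 3.50 CPM in VIP, and microglia markers to at most 19.2 CPM. The microglia marker Cx3cr1 lies in the unread run on chromosome 9, so its 0 cannot be read and this sum covers the other 8 genes of the list. Endothelial and mural markers summed to at most 18.4 CPM.

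**Figure D5:**
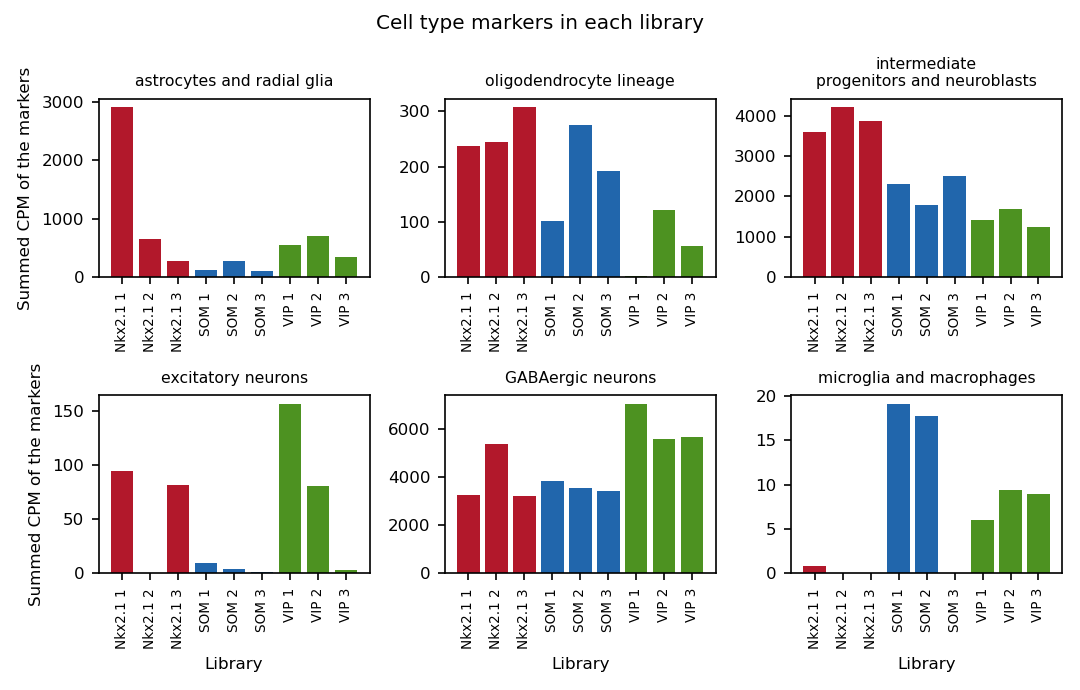
Summed CPM (vertical axis) of the markers of 6 cell classes in each library (horizontal axis), coloured by line; the vertical scales differ. Nkx2.1 replicate 1 stands out in astrocytes and radial glia, at 2904 CPM beside 104 to 709 CPM in the other 8 libraries.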

How the data were processed

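The files are raw read counts per gene symbol, deposited by the authors as 1 table per library. The submitters' processing notes name TopHat2 2.0.9, DESeq2 and the build mm10, with no role given; which program counted reads, and with which strand setting, is not given in the sources used here. Each table held 23319 symbols and 5 entries that name no gene; these held 83.6% to 85.2% of the total and were left out of library sizes and tests.

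The members and lists were chosen with earlier results of these data known. CPM were computed from reads in genes, with no further scaling. Differences were tested with edgeR 4.0.16 in R 4.3.3 (TMM, filterByExpr by group, quasi-likelihood test, all 9 libraries, group as the only term), adjusted by Benjamini-Hochberg over 10728 genes at 0.05. The common biological coefficient of variation was 1.40, with 6 residual degrees of freedom. The fit was tested on simulated data: it recovered known changes at a low spread and made no call at the spread of these libraries. DESeq2 1.42.0, another normalization, no filter, fits on 2 groups, a replicate block and leaving out each library were tried. Genome positions are GRCm38 (GENCODE annotation), and promoters are from RefSeq. Members tested or with at least 10 CPM in a library are given in every library. Other cell cycle genes are named where up in a library with at least 3 members up, at most 8 a library, and others were chosen after their values were seen. Intervals and the 3-read limit cover counting error only.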

Additional observations from a re-analysis of the deposited data

How the results depend on the processing

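The count of members called stayed at 0 in the 3 comparisons with another normalization, without the filter, with a replicate block, with 2 groups alone and, as a range over the 9 fits without 1 library, 0 to 0. DESeq2 called 1 member higher and 1 lower in Nkx2.1 over SOM, 1 higher in Nkx2.1 over VIP and 1 higher in SOM over VIP. Counts over all genes moved more. In Nkx2.1 over SOM, 7 higher and 3 lower became 3 and 1 with the block, 4 and 1 with 2 groups, 196 and 741 with DESeq2, and 0 to 8 and 0 to 29 without 1 library. In Nkx2.1 over VIP, 19 higher and 14 lower became 8 and 3 with the block, 463 and 914 with DESeq2, and 9 to 18 and 3 to 36 without 1 library, and with 2 groups the higher count was 10. In SOM over VIP, 6 higher and 2 lower became 14 and 7 without the filter, 3 and 1 with the block, 14 and 18 with 2 groups, 329 and 171 with DESeq2, and 3 to 9 and 0 to 8 without 1 library. The cause was not tested.

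Replicate numbers did not pair the libraries: correlations of deviations ran from -0.0412 to 0.0671 for pairs with the same number and from -0.0708 to 0.0623 for other pairs. With the block the median log2 fold change of the 18 tested members was -0.027 in Nkx2.1 over SOM (0.89 without it), 0.83 in Nkx2.1 over VIP (1.55) and 0.75 in SOM over VIP (0.17).

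The count of 15 members up in Nkx2.1 replicate 1 ranged from 14 (at least 30 reads) to 17 (2 times the median). In SOM replicate 3, 2 members up became 5 at 2 times the median and 1 at 30 reads, and in VIP replicate 2, 2 became 4 and 1. Members with at least 1 read in SOM replicate 1, 23, became 14 with at least 3 reads. Levels of 1 to 3 reads lie at the limit of depth.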
